A study of Homo sapiens with 6 samples.

Results

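The 10 glycolytic enzymes described here are HK2, GPI, PFKP, ALDOA, TPI1, GAPDH, PGK1, PGAM1, ENO1 and LDHA. They were chosen by gene symbol, with the highest mean level kept where a symbol had several entries, and each symbol had 1 entry among the 57150 genes of the deposited table. Glycolysis splits glucose into pyruvate in the cytosol and yields ATP and NADH without oxygen. An upper stretch spends ATP to prime and cleave the sugar, a lower stretch from GAPDH onwards returns ATP, and lactate dehydrogenase turns pyruvate into lactate so that NAD+ is regained. Leukemia lines in culture depend strongly on this route, and hypoxia-inducible factor (HIF) is known to raise many of its genes.

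The data were RNA-seq libraries of K562, a human leukemia line of erythroid character. Pools of cells received siRNAs against αCP1 and αCP2 together, or control siRNAs, with 3 libraries in each group, and RNA was taken 72 h after transfection. αCP1 and αCP2, encoded by PCBP1 and PCBP2, bind C-rich RNA, and the study asked how they affect splicing. The 3 libraries with αCP1/2 siRNAs rest on a pair of siRNA sequences, each of which targets both mRNAs, and some of the libraries of both groups had been used in an earlier study of the same laboratory. For each gene the table has a single value per group, in columns labelled KD and CTRL, so there is no spread between libraries and no test can be made. The columns are named here by these labels only. All ratios are KD over CTRL, and a difference below is a difference between these columns, with no replicate check. In such bulk RNA, fewer cells of a type and less RNA per cell cannot be told apart.

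The values that check the labels went partly against them. Levels are given as FPKM, the fragments counted per length of transcript and per depth of the library. PCBP1 was at 184.1 in KD against 187.8 in CTRL, and PCBP2 at 530.8 against 342.4. Of the mRNAs that the siRNAs target, PCBP1 was thus almost level between the columns, with a log2 ratio of -0.03. PCBP2 was higher in KD, with a log2 ratio of 0.63. The study itself reports that depletion was verified in both mRNA and protein. Of 14 erythroid and blood cell markers, 10 were under an FPKM of 1 in both columns and 8 of them, among which were GATA1, TAL1, KLF1 and ALAS2, were at 0 in both. HBE1 stood at 152.9 and 35.4. The summed FPKM of that list was 161.6 in KD and 43.4 in CTRL. Of 6 epithelial markers, 3 were over 5 in both columns, KRT7, KRT8 and KRT18, and the list summed to 4358 and 3174. KRT19 was at 0, and CDH1 and EPCAM were under 5 in both columns. Of 4 mesenchymal markers 1 was over 5 in both columns, VIM. It held 687.5 of the list's sum of 698.4 in KD and 545.3 of 552.0 in CTRL. The part of these levels in the values below was not tested. The column totals were 13699340 estimated counts in KD and 11680567 in CTRL. Both are below the mapped read pairs that the study lists for any single library. The estimated counts are thus not a plain sum of the fragments of the libraries.

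None of the 10 enzymes was higher in KD by a log2 ratio of 1 or more, and none was lower by a log2 ratio of -1 or less. Of the 13741 genes whose mean FPKM reached 1, 8.51% were past the upper limit and 3.27% past the lower one, so with 10 genes a count of 0 is near what these shares give. GAPDH, ALDOA, ENO1, TPI1, PGAM1, HK2 and GPI were higher in KD, and PFKP, PGK1 and LDHA were lower, with log2 ratios of FPKM + 1 from 0.79 for GAPDH to -0.76 for LDHA. This split depends on the scale: by share of the column's counts TPI1 and GPI were lower in KD, 5 enzymes were above 0 and 5 below, and the median was -0.066, against -0.21 over all genes that passed the filter. On the FPKM scale the median over the 10 was 0.26, against 0.01 over all genes that passed the filter and 0.25 over the 1286 genes whose mean FPKM reached 100, the class that holds 8 of the 10. A total of 5 of the 10 lay above the median of that abundant class.

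**Figure D1:**
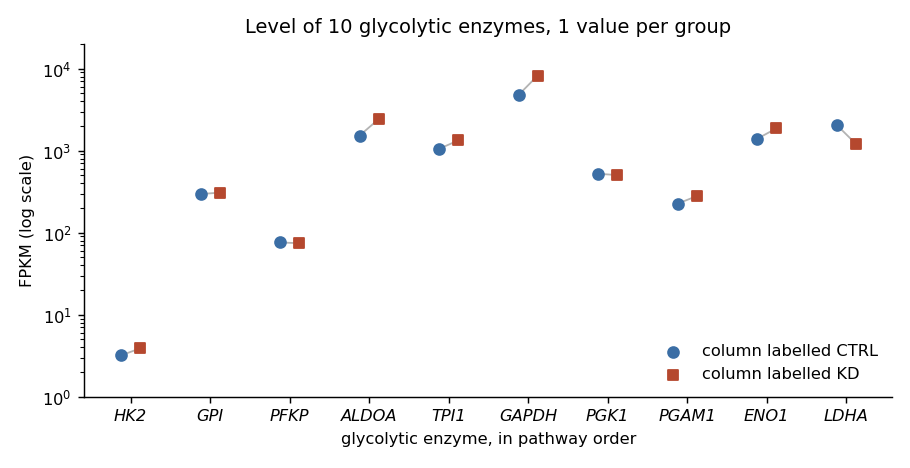
FPKM of the 10 glycolytic enzymes on a log axis, in pathway order, with circles for CTRL and squares for KD, 1 value per gene and column. GAPDH is the most abundant at 4778 in CTRL and 8238 in KD, HK2 the least at 3.19 and 3.89, and LDHA shows the widest step down, from 2064 to 1217.

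HK2 and PFKP, both of the upper stretch, were the least abundant of the 10. HK2, the hypoxia-responsive hexokinase that phosphorylates glucose, was at an FPKM of 3.89 in KD and 3.19 in CTRL, from 264 and 215 estimated counts. Its log2 ratio was 0.22, and its share of the column's counts gave a log2 ratio of 0.07 with a 95% interval of -0.20 to 0.33. This interval spans 0, so these counts did not settle a difference in HK2. The intervals here and below are exact binomial ones, taken on the estimated counts as if they were counted fragments. They cover counting error only, and how the estimated counts relate to sequenced fragments is not given in the sources used here. HK2 stood at 5.22% of the level of PFKP, the next lowest enzyme, in KD and at 4.19% in CTRL.

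GPI, which converts glucose 6-phosphate to fructose 6-phosphate, was at 308.1 in KD and 296.3 in CTRL, a log2 ratio of 0.06. PFKP, the platelet form of phosphofructokinase and part of the committed step, was at 74.5 and 76.2, a log2 ratio of -0.03. Both levels were thus almost level between the columns in FPKM. By share of counts both were lower in KD, with log2 ratios of -0.25 (-0.29 to -0.20) for GPI and -0.20 (-0.29 to -0.11) for PFKP. Both lay near the median of -0.21 over all genes that passed the filter on that scale.

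ALDOA, the aldolase that cleaves the 6-carbon sugar, was at 2422 in KD and 1528 in CTRL, an FPKM ratio of 1.58 and a log2 ratio of 0.66. Its counts of 26563 and 17147 gave a log2 ratio of shares of 0.40 (0.37 to 0.43). ALDOA was thus higher in KD on both scales. TPI1, which interconverts the triose phosphates, was at 1332 and 1053 in FPKM, a log2 ratio of 0.34, but its counts went the other way, with 10963 in KD and 12522 in CTRL and a log2 ratio of shares of -0.42 (-0.46 to -0.38).

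The conflict for TPI1 lies between the columns of the deposited table. In TPI1, 1000 counts corresponded to an FPKM of 121.5 in KD and 84.1 in CTRL, a log2 shift of 0.53, and 1.42% of the 9536 genes with at least 100 counts had a shift as large. PGK1 had a shift of 0.26, which 6.53% of those genes reached, and the middle 90% ran from -0.32 to 0.30. The other 8 enzymes were within -0.06 to 0.08. The table's locus for TPI1 spans 14.8 times the length of the gene in GENCODE, and that for PGK1 spans 0.293 times its length. For the other 8 enzymes this ran from 0.983 for PFKP to 2.76 for ALDOA, with GPI at 1.60. The direction for TPI1 is therefore unsettled, and the part of the locus span in it was not tested.

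The lower stretch held the most abundant mRNA. GAPDH, which oxidises glyceraldehyde 3-phosphate and makes NADH, was at 8238 in KD and 4778 in CTRL, the 15th and 16th highest FPKM of the table. Its FPKM ratio was 1.72 and its log2 ratio 0.79, and 112891 against 64647 counts gave a log2 ratio of shares of 0.57 (0.56 to 0.59). Among the genes that passed the filter, 13.4% had a log2 ratio of FPKM + 1 as high or higher, and among the abundant genes 22.4%. GAPDH is often used as a constant reference for RNA, and here it made up 50.7% of the summed FPKM of the 10 enzymes in KD and 40.0% in CTRL.

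GAPDH shares 422 nt, 32.8% of the exonic bases of its reference transcript, with RP5-940J5.9, a gene on the opposite strand. The kit used does not mark strand, so reads that lie within these shared bases cannot be told apart by strand. RP5-940J5.9 had 5052 counts in KD and 593.4 in CTRL, which is 4.48% and 0.918% of the counts of GAPDH. With both genes added together, a comparison added once the values had been seen, the log2 ratio of shares was 0.62.

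PGK1, which makes the first ATP of the lower stretch, was at 504.7 in KD and 523.5 in CTRL, a log2 ratio of -0.05. Its counts of 8391 and 10389 gave a log2 ratio of shares of -0.54 (-0.58 to -0.50). PGAM1, the mutase that moves the phosphate group, was at 279.3 and 226.1, a log2 ratio of 0.30, with a log2 ratio of shares of 0.08 (0.02 to 0.13). Both enzymes had smaller log2 ratios by share of counts than by FPKM, as did every other enzyme described here. The median over all genes that passed the filter was also smaller by share of counts, at -0.21 against 0.01 by FPKM. ENO1, the enolase that forms phosphoenolpyruvate, was at 1867 and 1395, a log2 ratio of 0.42, and its share gave 0.19 (0.17 to 0.22).

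LDHA, the lactate dehydrogenase subunit that favours the step from pyruvate to lactate, had the lowest ratio of the 10. It was at 1217 in KD and 2064 in CTRL, an FPKM 1.70 times higher in CTRL, and stood 56th among all genes in CTRL and 146th in KD. Its log2 ratio was -0.76, and 26001 against 43685 counts gave a log2 ratio of shares of -0.98 (-1.001 to -0.956). Of the genes that passed the filter, 7.13% had a log2 ratio of FPKM + 1 as low or lower, and of the abundant genes 3.19%. LDHA was the second most abundant of the 10 in CTRL and the fifth in KD. The ratio of LDHA to GAPDH in FPKM was 0.432 in CTRL and 0.148 in KD, and the log2 ratios of these enzymes differed by 1.55 on the FPKM scale and by 1.55 by share of counts.

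**Figure D2:**
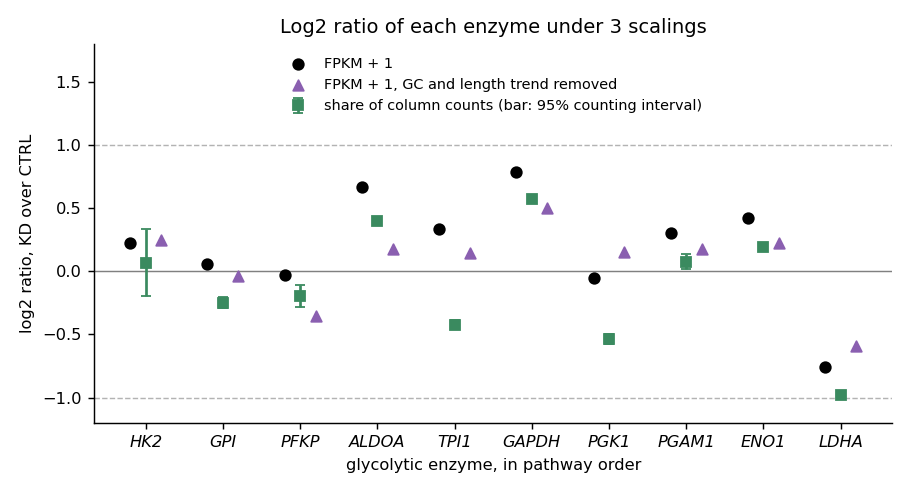
Log2 ratio of KD over CTRL for each enzyme, as FPKM + 1 (circles), as share of the column's counts with a 95% interval for counting error (squares and bars), and as FPKM + 1 after removal of a GC and length trend (triangles). Dashed lines mark log2 ratios of 1 and -1. LDHA is lowest and GAPDH highest under all 3 scalings, and GPI, TPI1 and PGK1 change sign between them.

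The summed FPKM of the 10 enzymes was 16246 in KD and 11944 in CTRL, a log2 ratio of 0.44. The FPKM columns themselves summed to values 1.29 times higher in KD, and as a share of that sum the enzymes held 1.36% and 1.29%. By counts, they held 1.74% (1.73% to 1.75%) of the KD column and 1.64% (1.63% to 1.65%) of the CTRL column, a log2 ratio of 0.087 (0.078 to 0.096). The large step in summed FPKM was thus small as a share of either column.

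Base composition moved with the ratios. Over 13298 genes with a reference transcript, Spearman's rho between GC content and the log2 ratio was 0.459, and over 1271 abundant genes it was 0.524. Genes are not independent replicates and all of them share the same pair of columns, so these are descriptions. Among the 10 enzymes rho was 0.68 and Pearson's r 0.76. LDHA at 41.8% GC and PGK1 at 42.8% were the lowest in GC content and the lowest in log2 ratio, and ALDOA at 60.5% was the highest in GC content, against a median of 48.4% over all genes that passed the filter.

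After a trend in GC content and log2 length over all genes was removed, the log2 ratio was -0.59 for LDHA, 0.50 for GAPDH and 0.17 for ALDOA, and the distance from GAPDH to LDHA was 1.09. PFKP came to -0.36, PGK1 to 0.15, TPI1 to 0.14 and GPI to -0.04. A total of 7 enzymes were above 0 and 3 below, with a median of 0.16. HK2, ALDOA, GAPDH, PGAM1 and ENO1 were above 0 under all 3 scalings, and PFKP and LDHA below 0. The part of base composition in the differences beyond this fit was not tested.

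**Figure D3:**
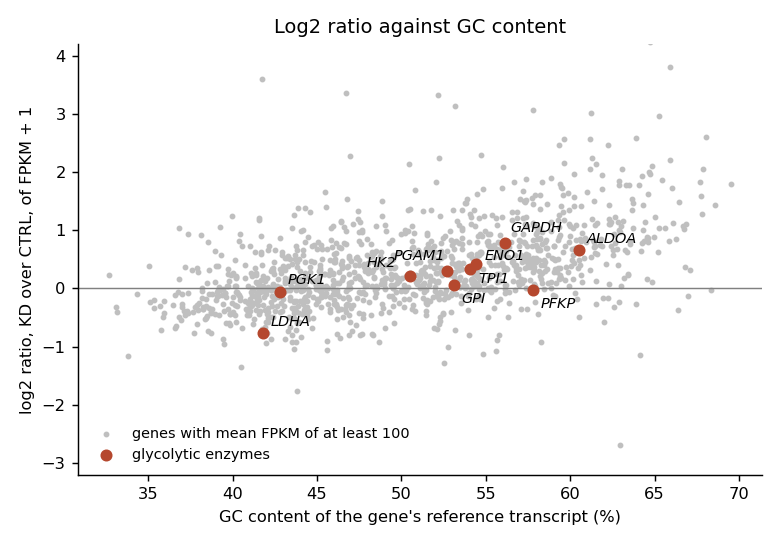
Log2 ratio of FPKM + 1 against the GC content of the reference transcript, in grey for genes whose mean FPKM reached 100 and in red for the 10 enzymes. Ratios are higher at higher GC content, and LDHA has the lowest GC content of the 10, at 41.8%, and the lowest ratio, at -0.76. Outside the vertical axis lie 8 grey points.

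Most steps of the pathway have several isozymes, and the levels show which ones the columns hold. GAPDH, PGK1 and PGAM1 made up 100% of their families in both columns, since GAPDHS, PGK2 and PGAM2, whose expression is largely limited to germ cells or muscle, were listed at 0. ALDOA made up 97.4% of aldolase FPKM in KD and 96.8% in CTRL, and ENO1 95.8% and 94.3% of enolase. The mRNA of these 5 families, as defined here, thus came almost wholly from the enzyme described, in both columns. Protein and enzyme activity were not measured.

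Hexokinase was different, since HK2 made up 5.46% of the family in KD and 2.98% in CTRL. HK1, the constitutive form, was the main hexokinase at an FPKM of 61.5 in KD and 92.8 in CTRL, a log2 ratio of -0.59. In phosphofructokinase PFKP held 43.9% in KD and 51.3% in CTRL. Its own level was nearly equal in the columns, and the liver form PFKL was at 43.51 and 11.96, a log2 ratio of 1.78.

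In lactate dehydrogenase the member's share was also lower in KD. LDHA held 52.4% of its FPKM in KD and 59.6% in CTRL, and 64.7% (64.3% to 65.2%) and 77.2% (76.8% to 77.5%) of its counts. LDHB, the subunit common in oxidative tissue, was at an FPKM of 1107 and 1401, a log2 ratio of -0.34. By FPKM both subunits were thus lower in KD, LDHA by more, and the summed family had a log2 ratio of -0.58. The counts of LDHB went the other way, with 14164 in KD and 12916 in CTRL. Its share of counts gave a log2 ratio of -0.10 (-0.13 to -0.06). The medians over all genes that passed the filter were 0.01 by FPKM and -0.21 by share of counts. LDHB was thus below the typical gene on the FPKM scale and above it by share of counts.

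**Figure D4:**
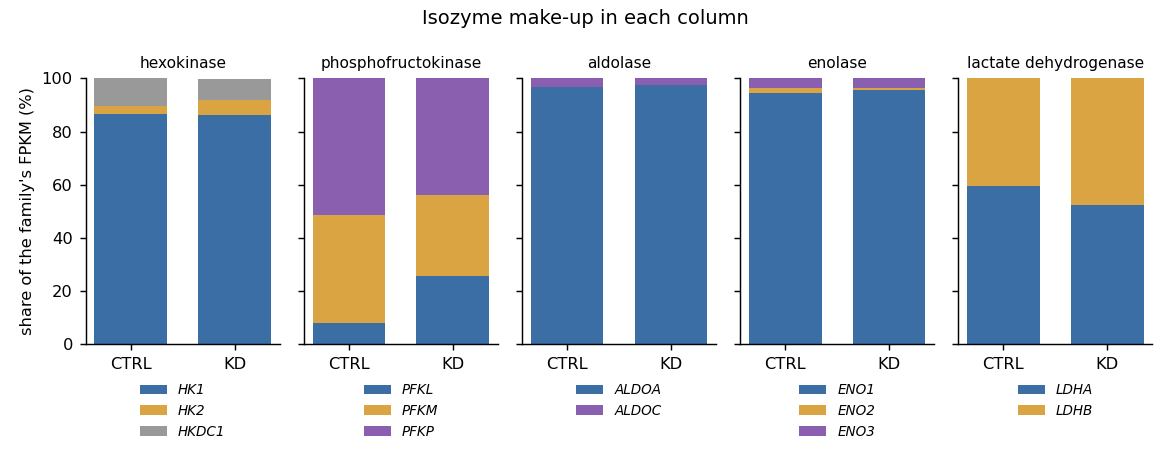
Share of each isozyme in the summed FPKM of its family, in percent, for CTRL and KD, with isozymes under 1% in both columns not drawn. ALDOA and ENO1 fill their families in both columns, HK2 is a small part of hexokinase, and the shares of PFKP and LDHA are smaller in KD, with differences of -7.39 and -7.19 percentage points.

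The genes around the pathway were read from lists of known function, each against the same background shares of 8.51% and 3.27%. Of 11 other isozymes and related enzymes that passed the filter, 1 was past the limit in each direction, PFKL above it and ENO2, the neuronal enolase, below it at an FPKM of 12.2 in KD and 29.7 in CTRL, a log2 ratio of -1.21. PKM, the pyruvate kinase that follows enolase and is no member of the 10, was at 1046 and 756.7, a log2 ratio of 0.47. The median of this list was -0.34. With the GC and length trend removed PFKL was at 1.16 and ENO2 at -1.37, both still past a limit.

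Of 11 switches of the pathway, such as the bifunctional PFKFB enzymes and the pyruvate dehydrogenase kinases, 1 was past the lower limit. This was PFKFB2, with a log2 ratio of -1.03, and PDK2 was highest at 0.97. PFKFB2 came to -0.81 with the GC and length trend removed, no longer past the limit. The median was 0.07, but -0.14 by share of counts and -0.03 with the trend removed, so its sign depends on the scale. HIF1A, the inducible subunit of HIF, was at an FPKM of 13.8 in KD and 21.2 in CTRL. Of 10 HIF target genes outside glycolysis none was past either limit, with a median of 0.01 and a range from -0.98 for ADM to 0.64 for P4HA1. By share of counts 4 of the 10 were above 0 and the median was -0.33, and with the trend removed it was 0.13.

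The pentose phosphate pathway, which branches off at glucose 6-phosphate and makes NADPH and ribose, had a median of 0.86 on the FPKM scale. Of its 7 genes 6 were above 0 and 1 was past the upper limit, PGLS, at an FPKM of 59.7 in KD and 24.3 in CTRL and a log2 ratio of 1.26. RPE was the lowest at -0.46. With the GC and length trend removed PGLS came to 0.43, under the limit. The median of this list was 0.43 once the GC and length trend was taken out and 0.66 by share of counts.

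Of the 5 carriers of glucose and lactate, 1 was past the upper limit. SLC16A3, the lactate exporter MCT4, was at an FPKM of 171.6 in KD and 43.4 in CTRL, a log2 ratio of 1.96, and SLC16A1, the related carrier MCT1, was lowest with a log2 ratio of -0.39. The median of the carriers was 0.68. For gluconeogenesis, 3 genes passed and their median was 0.67, with G6PC3 at 1.42 past the upper limit and PC lowest at -0.43. With the GC and length trend removed G6PC3 came to 0.92, under the limit, and SLC16A3 to 1.25, still past it.

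In the citric acid cycle and pyruvate dehydrogenase, which take pyruvate on into the mitochondrion, 13 of 20 genes were below 0 and the median was -0.21, or -0.35 by share of counts and -0.08 with the trend removed. PDHB, a subunit of pyruvate dehydrogenase, was lowest at -0.90, and none was past the lower limit. The 6 genes of the serine and glycerol branches had a median of -0.44, from -0.66 for PSPH to 0.36 for PHGDH, and none was past either limit.

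**Figure D5:**
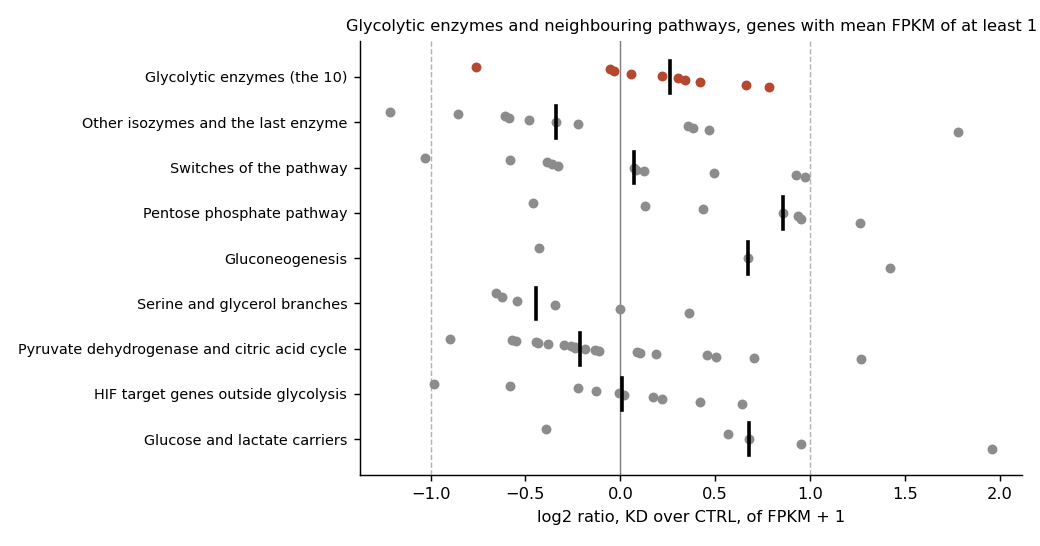
Log2 ratio of FPKM + 1 for each gene of the listed pathways whose mean FPKM reached 1, with a black bar at the median of each list and dashed lines at 1 and -1. The 10 glycolytic enzymes, in red, lie between -0.76 and 0.79 with a median of 0.26, and the pentose phosphate genes have a median of 0.86.

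The enzymes were also read for features of sequence. Promoters are shown because HIF binds a short core, ACGTG or the related GCGTG, in several of these genes. The MYC family binds CACGTG, which holds the first of these strings. The window ran from 250 nt before to 50 nt after the start of the GENCODE reference transcript on GRCh37, and both letter strings were searched on both strands, so that CACGTG counts on each. ACGTG was present in 7 of the 10 promoters, or 70%, against 23.3% of 19322 protein-coding genes of the table. GCGTG was present in 7 of 10 against 45.2%, and either string in 9 of 10 against 56.6%, with TPI1 the exception. The promoters of the 10 had a median GC content of 70.8%, against 63.7% over all, and both strings hold mostly G and C. LDHA and PGK1 had the most separate sites, 4 each, and HK2 and GAPDH had 3 each. The 60 nt before the start with the most marked bases are given for LDHA, PGK1 and HK2, 5′ to 3′ on the strand of the gene, with the letter strings in capitals.
LDHA, chr11:18416002-18416061, plus strand: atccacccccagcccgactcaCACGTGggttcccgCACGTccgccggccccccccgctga
PGK1, chrX:77359518-77359577, plus strand: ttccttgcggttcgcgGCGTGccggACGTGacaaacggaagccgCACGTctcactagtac
HK2, chr2:75061174-75061233, plus strand: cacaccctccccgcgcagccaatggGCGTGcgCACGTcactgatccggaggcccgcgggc
LDHA alone of the 10 has the palindrome CACGTG, at -87 from its start and again at -185, so the counts above are not counts of CACGTG. A match is only a description of the letters in the window.

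αCP1 and αCP2 act through C-rich stretches before splice acceptors, so the last 50 nt of the introns of the 10 genes were read on the sense strand. The C-rich consensus that the study derived was present before 10 of 109 exons, or 9.17%, against 8.61% of 184696 exons of protein-coding genes. The share was thus close to that of other genes, and the median C content was 28% against 24% and the median T content 32% against 36%. ALDOA, GAPDH and ENO1 had 2 such exons each, HK2, GPI, PFKP and LDHA had 1, and TPI1, PGK1 and PGAM1 had none. The table holds 1 level per gene and no splicing values, so no inclusion of these exons is given. For LDHA, GAPDH and ALDOA, the enzymes with the largest ratios, 1 window each is shown, with matches in capitals and the acceptor at the right end. GAPDH exon 2 and ALDOA exon 10 also had a match and are not printed. Their windows held 38% C each, against 48% and 54% in the printed ones of GAPDH and ALDOA.
LDHA exon 7 of 8, chr11:18426946-18426995, plus strand: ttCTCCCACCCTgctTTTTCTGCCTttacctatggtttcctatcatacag
GAPDH exon 5 of 9, chr12:6646036-6646085, plus strand: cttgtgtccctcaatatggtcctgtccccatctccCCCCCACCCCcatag
ALDOA exon 8 of 10, chr16:30080770-30080819, plus strand: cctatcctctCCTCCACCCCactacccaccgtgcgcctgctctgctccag
The LDHA window holds 2 matches and precedes an exon of 124 nt, the single exon with a match among the 10 genes that some annotated transcript skips.

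Pseudogenes copied from these mRNAs can take or lend reads. Named pseudogenes held 6.47% of the counts of TPI1 in KD and 5.59% in CTRL, nearly all from TPI1P1, with 706 and 699 counts. LDHA pseudogenes held 0.939% and 0.854%, mostly LDHAP4, and the 58 entries named for GAPDH pseudogenes held 48 and 96 counts, at most 0.149% of its own. GPI and PFKP had no entry of that kind. With the pseudogene counts added, the log2 ratio of shares was -0.41 for TPI1, -0.98 for LDHA and 0.57 for GAPDH. How the counting divided reads between copies is not given in the sources used here. GPI also shares 542 nt with RP11-618P17.4, listed at 0 in both columns, and TPI1 shares 14 nt with SPSB2.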

How the data were processed

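Libraries were made with TruSeq V1 and sequenced as 100 nt paired-end reads. The authors mapped reads with TopHat 1.4.1 to hg19 and computed FPKM with Cuffdiff 2.2.0, per the labels and methods. The deposited table holds 1 FPKM value and 1 estimated count per gene and group; the way in which the 3 libraries were joined is not given in the sources used here. Its columns of the authors' own fold changes, p-values and FDR were not used, nor were 4 further columns of values (group averages, maximum and minimum).

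The log2 ratio was log2 of (FPKM + 1) in KD over CTRL, which understates ratios of low genes, for genes whose mean FPKM reached 1, and the limits were 1 and -1. Shares of estimated counts had 95% exact binomial (Clopper-Pearson) intervals. These intervals need no replicates and hold no spread between libraries. They treat the estimated counts as counted fragments. The trend was quadratic in GC content and log2 length of GENCODE 44 reference transcripts on GRCh37, the same build as hg19. The 10 enzymes and all gene lists were chosen with earlier results of these data known, and other genes were named as the lowest or highest of a list or as past a limit, with the isozymes, HIF1A and PKM given for their place in the pathway. Some genes of the lists and 1 promoter are not reported here. Scripts were tested on simulated data. The software was pandas 2.3.3 and numpy 2.4.6 under Python 3.11.15, with pysam 0.24.0, matplotlib 3.10.9 and scipy 1.17.1.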

Additional observations from a re-analysis of the deposited data

How the results depend on the processing

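No paired analysis was possible because each group has a single value per gene. The counts of 0 enzymes past either limit held under every alternative tried: a pseudocount of 0.1, no filter, an FPKM over 5 in at least 1 column, centring on the median, the trend removed, shares of counts, and counts with pseudogenes. The median of the 10 enzymes was -0.066 by share of counts and -0.069 with pseudogenes added. The log2 ratio of the summed level was 0.087 by share of counts, 0.084 with pseudogenes added and 0.160 without GAPDH. By counts, which are not per length, the isozyme shares were 16.0% in KD and 10.9% in CTRL for HK2, 47.8% in CTRL for PFKP, 95.5% and 94.7% for ALDOA, 97.2% and 95.9% for ENO1, and 64.7% and 77.2% for LDHA. List medians by share of counts were -0.49 for other isozymes, -0.14 for switches, 0.66 for the pentose phosphate pathway, -0.33 for HIF targets, -0.35 for the citric acid cycle and 0.34 for carriers. With the trend removed they were -0.03 for switches, 0.13 for HIF targets, -0.08 for the citric acid cycle, 0.43 for the pentose phosphate pathway, 0.29 for gluconeogenesis and 0.57 for carriers. Among 51 values of single enzymes under alternatives, 6 changed sign, in GPI, TPI1 and PGK1. The cause was not tested.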
